A study of Mus musculus with 10 samples.

Results

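Clpx, the gene of the ATP-driven unfoldase of the mitochondrial matrix protease ClpXP, was followed here with 9 other genes of mitochondrial proteases and chaperones in sorted hematopoietic stem cells (HSCs) of old mice with and without the aryl hydrocarbon receptor (AHR). The set holds Clpx, Clpp, Lonp1, Afg3l2, Spg7, Yme1l1, Oma1, Htra2, Hspd1 and Hspa9, which are 10 of the 22180 genes measured, and each was read by 1 probe set. Clpx was chosen by its difference between the groups on these same arrays, so its difference is given as a description without a test. The other 9 were named for their function. The data were 10 Affymetrix Mouse Gene 2.0 ST arrays, 5 from AHR-KO mice and 5 from WT mice, 1 array per mouse, made to ask how gene expression in HSCs differs where AHR is lacking. All mice were C57BL/6J and 18 months old, and their sex was not given in the labels. The AHR-KO mice carried a knockout of Ahr in the germline, so that every cell type of the host lacked the receptor as well as the HSCs. The cells were lineage-depleted bone marrow cells sorted as CD48- CD150+ (SLAM+). P-values measure the spread between these mice.

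Mitochondria remove misfolded and surplus proteins with their own proteases. In the matrix, CLPX unfolds substrates and threads them into the chamber of the CLPP peptidase, and LONP1 unfolds and cuts in a single protein. In the inner membrane, the m-AAA protease (with AFG3L2 and SPG7 as subunits) faces the matrix and the i-AAA protease (YME1L1) faces the intermembrane space. CLPX also acts without CLPP: in erythroid cells it works on ALAS, the first enzyme of heme synthesis. OMA1 and HTRA2 need no ATP, and the chaperones HSP60 (Hspd1) and mortalin (Hspa9) fold and import the proteins that these enzymes otherwise degrade.

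No gene passed an adjusted p of 0.05 in limma, that is 0% of 22180, while limma gave an unadjusted p under 0.05 for 830 genes and the methods' t-test did for 906. The study's threshold was a difference of 1.5-fold with a p under 0.05, taken here as unadjusted. The study's methods also state a correction of its array analyses for multiple comparisons, without saying how. At this threshold 116 genes were called, or 0.523% of all genes, 40 higher and 76 lower in AHR-KO HSCs. The 5 values of each group did not overlap for 151 genes, or 0.681%. The Ahr probe set read 19.9 to 75.6 in AHR-KO arrays and 9.92 to 93.9 in WT arrays, but it does not check the labels, as the sources leave unstated where in Ahr the knockout allele is altered. The first principal component of all genes held 30.6% of the variance and split the arrays into 6 and 4. The smaller set held replicates 1 and 2 of AHR-KO with replicates 1 and 5 of WT. Of the 13 HSC identity markers measured, 12 were above the array's median signal on all 10 arrays, and so were 7 of 10 neutrophil, 8 of 9 mature myeloid, 6 of 8 mast cell, 6 of 10 erythroid and 1 of 9 lymphoid markers.

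The promoters of the genes of both ClpXP subunits are shown because AHR, paired with ARNT, binds DNA at the core GCGTG. The windows run from 250 bases before to 50 bases after the transcription start in the RefSeq annotation of GRCm38.p6, Clpx at chr9:65294010-65294309 and Clpp at chr17:56990014-56990313, both on the plus strand, and capitals mark GCGTG or its reverse complement CACGC.
Clpx: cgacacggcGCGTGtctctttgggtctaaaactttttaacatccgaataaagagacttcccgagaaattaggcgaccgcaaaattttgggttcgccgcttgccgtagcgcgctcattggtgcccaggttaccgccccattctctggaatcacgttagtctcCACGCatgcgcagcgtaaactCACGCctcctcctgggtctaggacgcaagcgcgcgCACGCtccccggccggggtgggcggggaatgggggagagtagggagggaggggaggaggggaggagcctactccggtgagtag
Clpp: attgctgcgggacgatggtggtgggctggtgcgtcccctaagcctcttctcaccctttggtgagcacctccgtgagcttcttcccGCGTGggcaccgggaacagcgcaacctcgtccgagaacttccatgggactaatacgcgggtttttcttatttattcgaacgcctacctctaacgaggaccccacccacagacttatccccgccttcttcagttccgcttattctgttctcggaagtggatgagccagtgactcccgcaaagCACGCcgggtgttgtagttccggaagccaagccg
The Clpx window held 4 matches to the core, which begin at -241, -89, -68 and -33 from the start site, and the Clpp window held 2, at -165 and +16. Of 32851 windows of the same length in the table, 32.4% held at least 1 match, 11.1% at least 2 and 1.33% at least 4. These windows were not matched for GC content, which was 60% in the Clpx window and 57.3% in the Clpp window. The same letters form part of the core bound by hypoxia-inducible factors. The Clpx window also held a match to the NRF1 motif GCGCANGCG, found in 6.25% of windows, at -87, where it overlaps the core match at -89. Of the 7 members with a window in the table, Lonp1 also had 4 core matches and Hspd1 had 2 in each of its windows, whereas Spg7, Oma1 and Yme1l1 had none. Heat shock elements (GAANNTTC, in 7.86% of windows) occurred among the members only in 1 Hspd1 window, and neither TGATGNAA (3.97% of windows), which C/EBP and ATF factors share, nor the YY1 motif AAGATGGCG (1.4%) occurred in any member's window. All motifs were searched on both strands, and a match describes letters and not binding.

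Clpx was higher in AHR-KO than in WT HSCs on every array. The Clpx signals were 135, 156, 92.7, 92.6 and 127 in AHR-KO replicates 1 to 5. In WT replicates 1 to 5 they were 63.9, 79.6, 73.3, 68.1 and 55.4. The lowest AHR-KO array thus lay above the highest WT array, and the AHR-KO arrays fell into 3 values well above the WT range and 2, replicates 3 and 4, just above it. On the scale log2(signal + 16) the mean was 7.07 ± 0.30 (SD, n = 5) in AHR-KO HSCs against 6.39 ± 0.16 (SD, n = 5) in WT, a difference of 0.68 (SE 0.15), or 1.61-fold. Clpx was the only member past the study's threshold, 1 of 10 where 0.523% of all genes were called, and the only one whose groups did not overlap, where 0.681% of all genes did not; both counts follow from how Clpx was chosen. In these bulk sorts, more RNA per cell and a larger share of cells that express the gene cannot be told apart.

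Clpp, the peptidase that CLPX feeds, was slightly lower on average in AHR-KO HSCs, within the spread between mice. The Clpp signals were 134, 114, 105, 105 and 97.4 in AHR-KO replicates 1 to 5. They were 169, 108, 114, 149 and 106 in WT replicates 1 to 5. The groups overlapped, and WT replicates 1 and 4 were the highest of all 10. While 3 AHR-KO arrays lay below every WT array, replicates 3 and 4 did so by little (105.01 and 104.81 against 105.5 in WT replicate 5). The mean log2 value was 6.98 ± 0.16 (SD, n = 5) in AHR-KO HSCs against 7.16 ± 0.27 (SD, n = 5) in WT, a difference of -0.18 (SE 0.14; limma adjusted p = 0.998). It was the only member whose AHR-KO mean was the lower. Whether the difference of Clpx and that of Clpp differ from each other was not tested, since Clpx was chosen by its own.

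**Figure D1:**
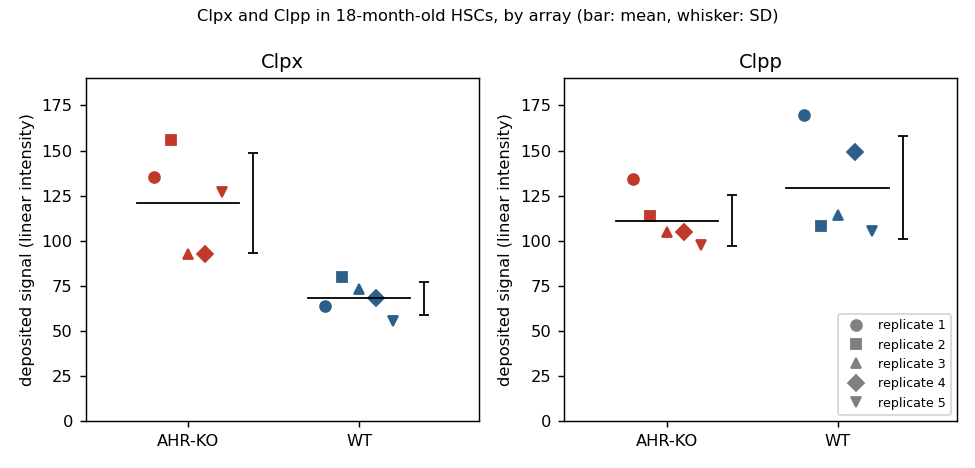
Signal of Clpx and Clpp on each of the 10 arrays, by group, with the group mean as a line and the SD as a whisker, one marker shape per replicate number. For Clpx the AHR-KO arrays lie between 92.6 and 156 and the WT arrays between 55.4 and 79.6, whereas the Clpp arrays of the groups overlap.

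The size of the Clpx difference depended on which arrays were compared. In the larger array set, AHR-KO replicates 3 to 5 against WT replicates 2 to 4, the mean log2 value was 6.89 against 6.48, a difference of 0.41 (SE 0.15). In the smaller set it was 7.33 against 6.24, a difference of 1.10 (SE 0.21). The array sets, which were split on all genes, markers included, did not overlap in 4 of the marker lists. The mean deviation of the mature myeloid markers was 0.32 to 0.66 in the larger set and -1.44 to -0.04 in the smaller, and that of the HSC identity markers -0.73 to -0.003 and 0.05 to 0.60. For the neutrophil markers it was -0.10 to 2.07 and -1.79 to -0.43, and for the lymphoid markers -0.15 to 1.16 and -0.62 to -0.35. Their part in the Clpx difference was not tested. Within both sets Clpx was higher in AHR-KO, but the difference in the larger set was under 1.5-fold. It was also under 1.5-fold with array weights (0.50) and with a pseudocount of 64 (0.47). Without any 1 array it stayed between 0.60 and 0.76.

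The other ATP-driven proteases among the members showed small differences, none past either threshold. The Lonp1 signals were 117, 96.3, 77.6, 63.2 and 71.2 in AHR-KO replicates 1 to 5. They were 97.3, 88.6, 70.7, 66.7 and 63.7 in WT replicates 1 to 5. The groups overlapped, and AHR-KO held both the highest array, replicate 1, and the lowest, replicate 4. The log2 difference of Lonp1 was 0.10 (SE 0.16), and it was -0.07 in the larger array set and 0.36 in the smaller.

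Afg3l2, a catalytic subunit of the m-AAA protease, read between 283 and 373 in AHR-KO and between 246 and 336 in WT arrays, and its log2 difference was 0.11 (SE 0.12). Its partner Spg7 (paraplegin) read between 59.2 and 70.9 in AHR-KO and between 55.3 and 86.6 in WT arrays. The Spg7 means were 6.39 ± 0.09 (SD, n = 5) and 6.38 ± 0.22 (SD, n = 5), a log2 difference of 0.01 (SE 0.12), the nearest to 0 of the members. The Spg7 difference was 0.15 in the larger array set and -0.20 in the smaller. Yme1l1, the i-AAA protease of the intermembrane space face, had a log2 difference of 0.14 (SE 0.13). The WT replicate 5 signal of Yme1l1 was 174, and the other 9 arrays lay between 230 and 285.

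Of the members that need no ATP, Htra2 and Oma1, the former had the larger difference. The Htra2 signals were 314, 389, 332, 364 and 294 in AHR-KO replicates 1 to 5. They were 311, 268, 316, 324 and 178 in WT replicates 1 to 5. HTRA2 is a serine protease of the intermembrane space that binds inhibitors of apoptosis once released, and 3 of its AHR-KO arrays lay above every WT array. The Htra2 means were 8.46 ± 0.15 (SD, n = 5) and 8.18 ± 0.34 (SD, n = 5), a log2 difference of 0.29 (SE 0.16; limma adjusted p = 0.998), or 1.22-fold, and without WT replicate 5 it was 0.14. OMA1 is the stress-activated metalloprotease that cleaves OPA1 and DELE1. Oma1 read between 74.5 and 99.7 in AHR-KO arrays, and its WT arrays held both the highest value of all 10, 120.04 in replicate 1, and the lowest, 37.6 in replicate 5. The log2 difference of Oma1 was 0.15 (SE 0.21), and without WT replicate 5 it was -0.04.

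Both matrix chaperones had somewhat higher means in AHR-KO HSCs, within the spread between mice. The Hspa9 signals were 1285, 1140, 1116, 921 and 1019 in AHR-KO replicates 1 to 5. They were 991, 957, 955, 998 and 676 in WT replicates 1 to 5. For Hspa9, which pulls preproteins through the inner membrane, 4 AHR-KO arrays lay above every WT array, and replicate 4 lay below 4 of the WT arrays. The Hspa9 means were 10.11 ± 0.18 (SD, n = 5) and 9.85 ± 0.23 (SD, n = 5), a log2 difference of 0.26 (SE 0.14; limma adjusted p = 0.998), or 1.20-fold, and without WT replicate 5 it was 0.16.

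Hspd1, the folding chamber of the matrix, read 1963, 1833, 1904, 1734 and 1907 in AHR-KO replicates 1 to 5. In WT replicates 1 to 5 the Hspd1 signals were 2062, 1499, 1596, 1620 and 1482. WT replicate 1 was the highest array, and the other WT arrays lay below every AHR-KO array. The log2 difference of Hspd1 was 0.19 (SE 0.11), or 1.14-fold. Hspe1, which encodes the lid of that chamber and was looked up because it shares a promoter region with Hspd1, had a log2 difference of 0.09 (SE 0.10; limma adjusted p = 0.998).

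**Figure D2:**
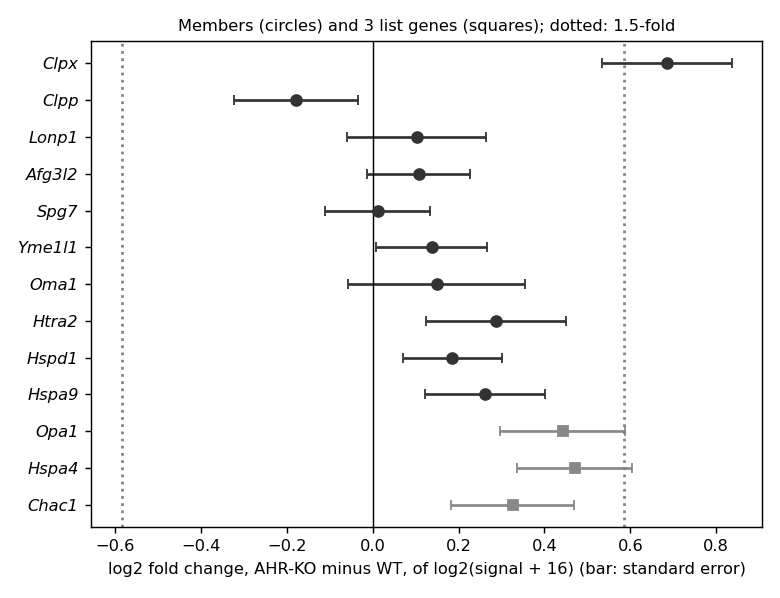
Difference in mean log2(signal + 16) between AHR-KO and WT for the 10 members (circles) and for Opa1, Hspa4 and Chac1 of the pathway lists (squares), with the standard error as a bar and 1.5-fold as dotted lines. Clpx lies at 0.68 and the other 9 members lie between -0.18 and 0.29.

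Of the 9 members other than Clpx, 8 had a higher mean in AHR-KO HSCs, where 51.1% of all genes did, and none had an unadjusted p under 0.05. Their median log2 difference was 0.14, against 0.004 over all genes, and with any 1 array left out it lay between 0.05, without WT replicate 5, and 0.19, without WT replicate 1. Without WT replicate 1 Hspd1 was 0.27 (limma unadjusted p = 0.0242), and without AHR-KO replicate 4 Hspa9 was 0.32 (limma unadjusted p = 0.0494), both with an adjusted p of 0.996 in limma. WT replicate 5 was the lowest WT array for 9 of the 10 members, Spg7 being the exception, and the lowest of all 10 arrays for 7 of them. It was the lowest WT array for 23.9% of all genes and for 29.4% of genes above the median level, where all the members lie. Without it, 7 of the 9 had a higher mean in AHR-KO and their median fell to 0.05, whereas Clpx was still 0.63.

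The mean log2 deviation of the 9 other members from their averages was 0.14, 0.07, 0.03, -0.02 and 0.07 in AHR-KO replicates 1 to 5. In WT replicates 1 to 5 it was 0.22, -0.11, 0.01, -0.03 and -0.38. The WT arrays thus held both the highest and the lowest value. WT replicate 1 was the highest WT array for 6 of the 10 members, for 24.5% of all genes and for 25.2% of genes above the median level. The SD was smaller in AHR-KO than in WT for 8 of the 10 members, for 51.7% of all genes and for 47.3% of genes above the median level. Markers of erythroid cells were high and low on the same WT arrays: 6 of the 10 erythroid markers were above the median signal on all arrays, and their mean deviation was 0.95 in WT replicate 1, 0.95 in AHR-KO replicate 1 and -0.88 in WT replicate 5. It ranged from -0.25 to 0.95 in AHR-KO and from -0.88 to 0.95 in WT. Of these markers, 8 of the 10 had a higher mean in AHR-KO (median log2 difference 0.40). Their part in the members' values was not tested. The HSC identity markers ranged from -0.73 to 0.47 in AHR-KO and from -0.20 to 0.60 in WT, WT replicate 5 being the highest. Only 1 of 13 had a higher mean in AHR-KO (median log2 difference -0.25). Of the mast cell and basophil markers, 7 of 8 had a lower mean in AHR-KO (median log2 difference -0.42), and 3 of the 8 passed the study's threshold, where 0.523% of all genes did. All 9 lymphoid markers measured had a higher mean in AHR-KO (median 0.18), although 1 of the 9 was above the median signal on all arrays. The mature myeloid markers had 1 of 9 higher (median -0.06) and the neutrophil markers 6 of 10 (median 0.03). The part of these lists was not tested either.

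**Figure D3:**
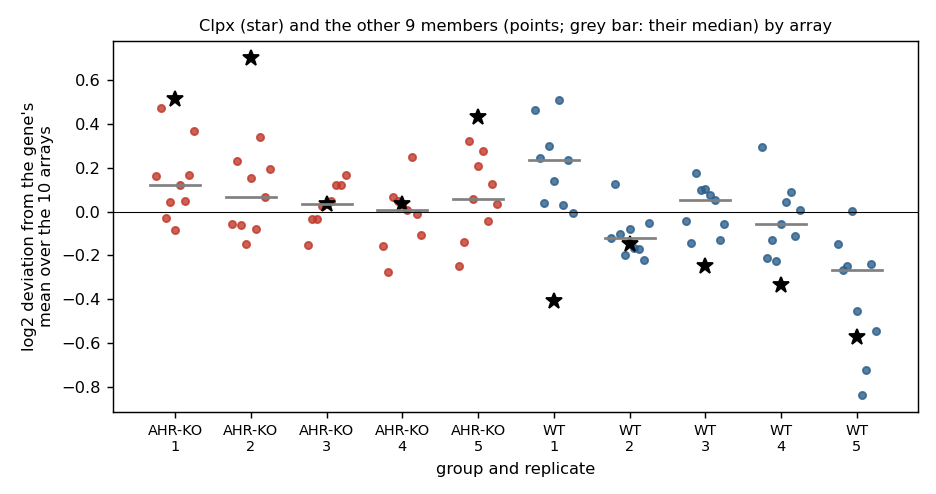
Deviation of Clpx (star) and of the other 9 members (points, with their median as a grey bar) from each gene's mean over the 10 arrays, in log2(signal + 16), by array. WT replicate 5 is the lowest WT array for 9 of the 10 members, and Clpx is above its mean on all AHR-KO arrays and below it on all WT arrays.

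Whether the other members varied with Clpx from mouse to mouse was asked after the group means were subtracted, a measure that the choice of Clpx did not use. Lonp1 had the highest Pearson's r with Clpx of the 9, 0.59 (two-sided exact permutation p = 0.123), with a Spearman's rho of 0.58 (exact permutation p = 0.127). Hspa9 followed with an r of 0.57 (exact permutation p = 0.0754) and a rho of 0.49 (exact permutation p = 0.173). Spg7 was the only member with a negative r, -0.36 (exact permutation p = 0.206), with a rho of -0.26 (exact permutation p = 0.417). Adjusted over 22179 genes by Benjamini-Hochberg, the exact permutation p values of the 9 members over these 10 arrays ranged from 0.937 to 0.990 for r and from 0.972 to 1 for rho.

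Clpp, the partner in ClpXP, had an r of 0.14 with Clpx (exact permutation p = 0.658) and a rho of 0.04 (exact permutation p = 0.909). The r values of Yme1l1 (0.36), Htra2 (0.29), Oma1 (0.19), Afg3l2 (0.14) and Hspd1 (0.05) had exact permutation p values of 0.226, 0.325, 0.499, 0.757 and 0.878. The rho values of these genes were 0.27, 0.15, -0.07, -0.01 and 0.04, with exact permutation p values of 0.424, 0.679, 0.861, 1 and 0.908. Positive r values were thus found for 8 of the 9, and for 50.9% of all genes. That count rested on WT replicate 5. Without it r was -0.02 for Clpp, -0.06 for Afg3l2, -0.24 for Oma1, -0.08 for Htra2 and -0.12 for Hspd1. Lonp1, Hspa9 and Yme1l1 kept a positive r whichever array was left out. The median r of the 9 was 0.19, and the 5th and 95th percentiles of all genes were -0.57 and 0.59, with Lonp1 at the upper of these and the other members between them.

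After the group means were subtracted, AHR-KO replicates 3 and 4 were the arrays farthest from the median of Clpx. Without them r was 0.38 for Lonp1, 0.63 for Hspa9, 0.47 for Yme1l1, 0.69 for Htra2, 0.22 for Oma1, 0.03 for Afg3l2, -0.03 for Clpp, -0.18 for Hspd1 and -0.47 for Spg7. The order of the members therefore changed, with Lonp1 giving way to Htra2 and Hspa9. When the array-set means were subtracted as well, r was 0.59 for Lonp1, 0.58 for Hspa9 and -0.45 for Spg7. This subtraction left in place how far the AHR-KO difference itself varied between the array sets. For Clpx that difference was 0.41 in the larger set and 1.10 in the smaller. It was -0.07 and 0.36 for Lonp1, 0.07 and 0.56 for Hspa9, and 0.15 and -0.20 for Spg7. The r with this variation removed as well was not computed.

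**Figure D4:**
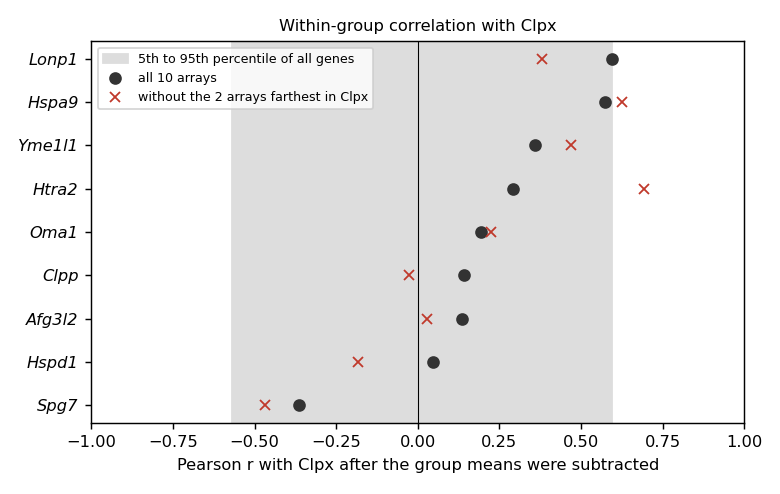
Pearson's r with Clpx over the 10 arrays, after subtraction of the group means, for the 9 other members, with all 10 arrays (circles) and without AHR-KO replicates 3 and 4 (crosses), and the 5th to 95th percentile of all genes shaded. With all arrays Lonp1 (0.59) and Hspa9 (0.57) are highest and Spg7 (-0.36) is lowest.

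Among genes above the median level outside the set, those most like Clpx by this r over 10 arrays were Hoxa3 (0.94), Rbm39 (0.91), Aebp2 (0.89), Sar1a (0.88) and Lin37 (0.88). Hoxa3 lay only just above that level, with a mean log2 value of 5.79 against a median of 5.67. Its signals were low, 24.9 to 61.3. HOXA3 is a homeobox factor, RBM39 a splicing factor, AEBP2 a subunit of a Polycomb complex, SAR1A a GTPase of vesicle budding and LIN37 a subunit of a cell-cycle repressor. Adjusted over all genes, the exact permutation p values of these 5 were 0.616, 0.754, 0.680, 0.680 and 0.692. In all, 1143 genes, or 5.15%, had an unadjusted exact permutation p under 0.05, and 0 had an adjusted p under 0.05.

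Beyond the 10 members, 12 pathway lists held 103 measured genes, of which Clpx alone passed the study's threshold. Since Clpx was chosen by that difference and 0.523% of all genes pass, nothing is read from this count. Of the other 102, Chac1, Opa1 and Hspa4 had an unadjusted p under 0.05, a share of 2.94% where 3.74% of all genes had one, and every adjusted p in limma was 0.998 or higher. Of the 59 mitochondrial genes on these lists outside the 10 members, 38 had a higher mean in AHR-KO HSCs and the median log2 difference was 0.04.

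The chaperone list had 8 of 9 measured genes higher in AHR-KO (median 0.15), the lower one being Hscb, an iron-sulfur cluster co-chaperone. The ATP-driven proteases had 6 of 7 higher (median 0.11). Afg3l1, the only one of these 7 outside the members, had a log2 difference of 0.28, the largest on that list after Clpx. The proteases that need no ATP had 3 of 7 higher (median -0.01). On that list Atp23, which helps to mature ATP synthase, had a log2 difference of -0.28 (SE 0.14), and Nln, the oligopeptidase neurolysin, one of -0.40 (SE 0.21). Of the processing peptidases, which remove import signals, 4 of 6 were higher (median 0.06). Xpnpep3 had a log2 difference of 0.24, or 0.12 with the mean of its probe sets. Pmpcb, the catalytic subunit of the main processing peptidase, had one of 0.13. The prohibitin scaffold around the m-AAA protease had 2 of 3 higher (median 0.08), with Maip1 and Stoml2 at 0.08 each.

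Import machinery gave no common direction. The presequence translocase had 3 of 7 higher (median -0.02), with the channel Timm23 at 0.21 and the motor anchor Timm44 at -0.16. The outer membrane translocase had 3 of 5 higher (median 0.01), with the receptor Tomm20 at 0.14 and the small subunit Tomm7 at -0.29. For Tomm7, AHR-KO replicate 2 and WT replicate 1 were the highest arrays, at 1518 and 1170, so that the smaller array set alone gave 0.04.

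Genes of the mitochondrial unfolded protein response and the integrated stress response, which mitochondrial protein damage can switch on, had 7 of 12 higher (median 0.03), and 4 of 12 without WT replicate 5. The factors Atf4, Atf5 and Ddit3 had log2 differences of 0.02, -0.09 and 0.04. Chac1, a glutathione-degrading enzyme induced by ATF4, had a difference of 0.33 (SE 0.14; limma adjusted p = 0.998) at signals of 32.1 to 47.1 in AHR-KO and 20.1 to 39.5 in WT arrays, which overlapped. Fgf21, a secreted product of the same response, had a difference of 0.21.

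Among the proteins that OMA1 and YME1L1 cut, Opa1, the GTPase of inner membrane fusion, had the largest difference. Its log2 values were 7.92, 7.55, 7.64, 7.56 and 7.75 in AHR-KO replicates 1 to 5, and 7.32, 7.43, 7.49, 7.18 and 6.79 in WT replicates 1 to 5. Every AHR-KO array lay above every WT array, by little for replicates 2 and 4. The log2 difference of Opa1 was 0.44 (SE 0.15; limma adjusted p = 0.998), under 1.5-fold. Pgam5, a mitochondrial phosphatase, had a difference of 0.43 (SE 0.30), which was -0.02 in the larger array set. With the mean of its probe sets the Pgam5 difference was 0.19. The list as a whole had 3 of 5 higher (median 0.03).

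Heme synthesis, in which CLPX acts on ALAS, had 8 of 9 measured genes higher in AHR-KO (median 0.22), and only Alas1, the ALAS form of all tissues, had a lower mean, at -0.07. Fech, which inserts the iron, had a log2 difference of 0.40 (SE 0.26) and Urod one of 0.33 (SE 0.18; limma adjusted p = 0.998 for both). Without WT replicate 1 Fech was 0.59 and passed the study's threshold. The mean deviation of the list was highest in WT replicate 1 (0.32) and lowest in WT replicate 5 (-0.56), the same arrays that were highest and lowest among the WT arrays for the erythroid markers. The part of erythroid markers in this list was not tested.

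Outside the mitochondrion, 13 of 15 cytosolic chaperones had a higher mean in AHR-KO (median 0.10) and 10 of 19 proteasome subunits did (median 0.01), the latter 6 of 19 without WT replicate 5. Hspa4, a nucleotide exchange factor of cytosolic HSP70, had log2 values of 9.42, 9.47, 9.61, 9.19 and 9.92 in AHR-KO replicates 1 to 5. In WT replicates 1 to 5 they were 8.99, 9.03, 9.15, 8.99 and 9.07. These groups did not overlap either, and the difference was 0.47 (SE 0.13; limma adjusted p = 0.998), under 1.5-fold. Cct2, a subunit of the cytosolic folding chamber, had a difference of 0.20, and the proteasome genes Psma3 and Psmc4 had 0.22 each.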

How the data were processed

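Total RNA of sorted SLAM+ HSCs was measured on Affymetrix Mouse Gene 2.0 ST arrays, 1 array per mouse. For each probe set and array the authors deposited an intensity on a linear scale. Affymetrix Expression Console, with no version, is the tool in the submitters' processing notes. The study's methods name IterPLIER, background subtraction and quantile normalization, without stating that they cover these arrays. All 10 arrays have the same median intensity, 24.65, so a shift shared by most genes would not be seen. There is no read depth on arrays, and precision is limited by how many there are.

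Of 41345 probe sets, 23521 had 1 gene symbol in the platform annotation, 1820 had several and 16004 had none, and only those with 1 were named. Where a gene had several probe sets (1082 genes), the one with the highest mean was used. Genes that it does not list were not analysed here. Values were log2(signal + 16), fitted with limma 3.58.1 (lmFit and eBayes, R 4.3.3) on all 10 arrays with no covariate, with Benjamini-Hochberg adjustment over 22180 genes, and the fit was tested on simulated data. Correlations used exact permutation of the arrays within each group (14400 permutations, Python 3.11.15). The deviation of an array is its log2 value minus the gene's mean over all arrays, averaged over a list.

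The members and all lists were chosen with earlier results of these data known. The genes named are the 10 members, the genes of each pathway list past the study's threshold or else up to 2 with the smallest unadjusted p, and the 5 genes above the median level with the highest within-group r with Clpx. Hspe1, Hscb, Alas1, Atf4, Atf5, Ddit3 and Afg3l1 were named in addition, after their values were seen. Alternatives were pseudocounts of 1 and 64, a second quantile normalization, a filter at the median level, the mean of probe sets, a replicate block, a trended robust spread, array weights, the methods' t-test, folds of linear means, the array sets as a block or apart, and each array left out.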

Additional observations from a re-analysis of the deposited data

Results flagged for a closer look

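Of 70 groups of 5 arrays tested for a single distant value, 9 were marked, and chance marks about 1 in 20. Values are log2(signal + 16). Among the members, Spg7 was 6.232 in AHR-KO replicate 2, where the other AHR-KO arrays lay between 6.409 and 6.441. Hspd1 was 11.02 in WT replicate 1, the other WT arrays between 10.55 and 10.68. Hspa9 was 9.434 in WT replicate 5, the other WT arrays between 9.924 and 9.986.

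Of the other genes named, AHR-KO replicate 2 was high for Stoml2 (8.843, the others 7.9 to 7.972) and for Atp23 (6.539, the others 6.182 to 6.276). WT replicate 1 was high for Tomm7 (10.21, the others 9.618 to 9.773). AHR-KO replicate 1 was low for Chac1 (5.589, the others 5.872 to 5.979). WT replicate 5 was low for Pgam5 (5.199, the others 6.579 to 6.999). WT replicate 2 was high for Aebp2 (7.933, the others 7.56 to 7.656).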

How the results depend on the processing

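Clpx was higher in AHR-KO under every alternative listed in the methods, but no member passed the study's threshold (0 of 10) with array weights, a pseudocount of 64 or within the larger array set, where Clpx was 0.50, 0.47 and 0.41. The count of all genes past the threshold, 116, was 574 and 16 with pseudocounts of 1 and 64, 71 above the median level, 75 with the methods' t-test, 429 with linear means, 331 in the larger set and 845 in the smaller, and 99 to 230 with 1 array left out. The replicate numbers are shared between groups, and the labels do not say whether they pair the mice. Correlations of same-numbered arrays (0.352, -0.198, 0.154, 0.214 and -0.123) differ in sign and cannot decide it. With a replicate block 153 genes passed, and the mean differences, Clpx at 0.68 included, cannot change by construction.

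Signs changed for small differences, and the cause was not tested. Array weights gave -0.000426 for Lonp1 and -0.0822 for Stoml2. The larger set gave -0.0713 for Lonp1, -0.0622 for Stoml2, 0.00757 for Timm44 and -0.0157 for Pgam5. The smaller set gave -0.20 for Spg7, -0.0852 for Timm23, 0.0418 for Tomm7 and -0.25 for Fgf21. With 1 array left out, Lonp1 ranged from -0.00312 to 0.18, Spg7 from -0.0438 to 0.0875, Oma1 from -0.0414 to 0.29, Maip1 from -0.0823 to 0.18 and Stoml2 from -0.11 to 0.26. The r with Clpx then ranged from -0.0224 to 0.29 for Clpp, -0.0580 to 0.39 for Afg3l2, -0.24 to 0.37 for Oma1, -0.0807 to 0.44 for Htra2 and -0.12 to 0.34 for Hspd1, and Hspd1 was -0.0379 with array-set means subtracted. Nln passed the threshold in the smaller set (-0.94).

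Of the lists, the presequence translocase had 1 of 7 higher with array weights or without AHR-KO replicate 1, and ranged from 1 to 4 with 1 array left out. The prohibitin scaffold had 1 of 3 when AHR-KO replicate 2 was left out and 0 without WT replicate 4, a range of 0 to 3. The stress response list ranged from 4 to 8 and the proteasome from 6 to 13, both lowest without WT replicate 5.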
